A study of Mus musculus with 12 samples.

Results

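The ubiquitin conjugases (Ube2 genes) and the ubiquitin-specific proteases (Usp genes) were described in the gastrocnemius and quadriceps of mice flown on the International Space Station and of mice kept on the ground. A member was any listed gene whose symbol begins with Ube2, or with Usp and a number, and does not carry the pseudogene ending -ps, which removed 4 symbols. The choice used names and no measured value. It gave 95 of the 36008 listed genes, 39 with a conjugase symbol and 56 with a protease symbol. Of these, 71 members (31 conjugases and 40 proteases) exceeded 5 TPM (transcript abundance scaled to the library's total) in at least 1 of 12 libraries and were tested, and 24 did not. Ube2cbp, Usp6nl, Usp39 and Usp50 match the symbols but are not known as active conjugases or proteases, and they were kept because the rule takes them. Ube2nl and Ube2d4, annotated as processed pseudogenes, were kept for the same reason.

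Ubiquitin is a small protein that cells attach to other proteins in a relay. An activating enzyme loads it, a conjugase carries it, and a ligase directs the conjugase to its substrate, after which chains of ubiquitin can send the substrate to the proteasome or alter its signalling. Ubiquitin-specific proteases cut the ubiquitin off again, and in skeletal muscle this balance is known for its part in the breakdown of myofibrillar protein during wasting.

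RNA of both muscles from 6 female mice was sequenced, giving 12 libraries in 4 groups of 3. The mice were 30 weeks old at the start. M11, M12 and M20 spent 9 weeks on the station, and the ground group (M02, M03 and M08) was housed for as long in hardware of the same type. All 6 received injections of phosphate-buffered saline as the control arm of a bone study, so the injections were common to both conditions. The strain is BALB/c in the study's methods and C57BL/6 in the sample labels. Left hind limb muscles were dissected after the frozen carcasses were thawed. Flight and ground also differed in launch, return and place of death, which cannot be told apart from weightlessness here.

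The libraries' TPM values summed to 923295 to 924762 in the ground gastrocnemius, 937534 to 946314 in the flight gastrocnemius, 952229 to 961683 in the ground quadriceps and 964792 to 966638 in the flight quadriceps. The share of the TPM scale that lies outside the listed genes thus moved with the groups, without overlap, and its part in the members' values was not tested. The quadriceps library of ground mouse M08 listed 18172 genes above 0 and the others 20291 to 21265. All 14 markers of skeletal muscle fibres exceeded 5 TPM in each group, with a summed level of 96100 to 104000 TPM in the gastrocnemius and 122000 to 136000 in the quadriceps. TPM carries no counting depth. In bulk muscle, fewer cells of a type and less RNA per cell cannot be told apart.

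The conjugases were led by Ube2b, the RAD6 homologue that pairs with N-end rule ligases and was early tied to muscle wasting. Its mean over the 12 libraries was 265 TPM, 17.0% of the conjugase total. Ube2d3 (176 TPM), Ube2d1 (153 TPM) and Ube2r2 (132 TPM) followed, the first of these being broad partners of many ligases and the last a partner of cullin ligases. Ube2v1, a catalytically inactive variant that steers Ube2n toward chains on lysine 63, had 83.8 TPM, and Ube2l3, the partner of parkin and HOIP-type ligases, had 83.1 TPM. These 6 genes held 57.1% of the conjugase total. For Ube2v1, 59.9% of the 31-base words of its transcripts also occur in transcripts of other genes, so its level is uncertain.

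The proteases were led by Usp2, a clock-controlled enzyme, at a mean of 161 TPM. Usp47, an enzyme of base excision repair and beta-catenin turnover, had 135 TPM, and Usp19, known from muscle wasting and protein quality control, had 122 TPM. Usp15 (121 TPM) opposes parkin and acts on TGF-beta signalling. Usp13 (120 TPM) acts in autophagy and the degradation of endoplasmic reticulum proteins, and Usp9x (75.1 TPM) is a large enzyme with many substrates. These 6 held 49.4% of the protease total. The order Usp19, Usp15, Usp13 was not separated by the spread between libraries, since Usp19 ranged from 112 to 135 TPM, Usp15 from 107 to 139 and Usp13 from 98.1 to 133.

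**Figure D1:**
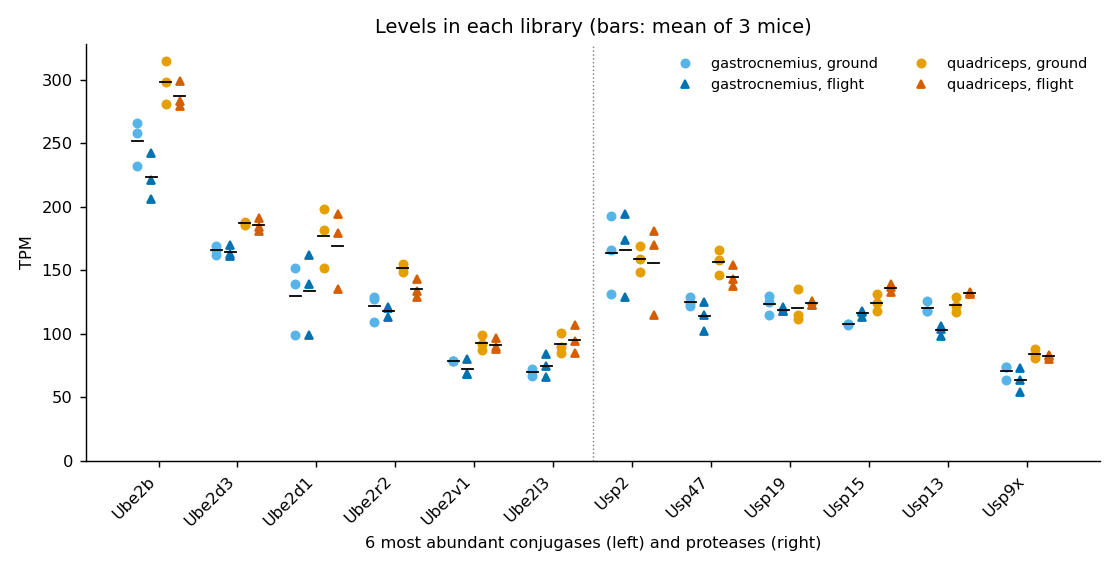
TPM (linear axis) of the 6 most abundant conjugases and the 6 most abundant proteases in every library, with the mean of 3 mice as a bar (circles ground, triangles flight). Ube2b lies highest, between 206 and 315 TPM, and Ube2d1 and Usp2 spread widely in the gastrocnemius.

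Within each gastrocnemius group, Ube2d1 and Usp2 had the largest spread between mice, relative to the mean, of the 12 members above. Ube2d1 had 99.3, 139 and 152 TPM in the gastrocnemius of the ground mice M02, M03 and M08, and 162, 99.2 and 139 TPM in that of the flight mice M11, M12 and M20. Usp2 had 166, 193 and 131 TPM in the ground gastrocnemius and 129, 194 and 174 in the flight gastrocnemius, so the groups of either gene overlapped almost entirely. At the other end, Usp19 had the smallest coefficient of variation over 12 libraries among the tested proteases, 5.46%, and Ube2d3 the smallest among the tested conjugases, 6.57%. The median coefficient was 12.8% for the tested conjugases, 13.8% for the tested proteases and 16.2% for all 10481 tested genes.

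Members that share a symbol stem were unequal. Ube2d3 (161 to 191 TPM) was the highest Ube2d gene in 10 libraries and Ube2d1 (99.2 to 198 TPM) in 2, while Ube2d2a (27.5 to 49.5 TPM) and Ube2d2b (0.467 to 1.22 TPM) were lower in all 12. Ube2e1 held 57.8% of the summed Ube2e level, Ube2g1 62.9% of Ube2g, Ube2q2 71.6% of Ube2q and Ube2v1 76.6% of Ube2v, each the highest of its stem in 12 of 12 libraries. Ube2j2, one of a pair of tail-anchored conjugases of the endoplasmic reticulum, exceeded Ube2j1 in 10 libraries. Among proteases, Usp25 (44.3 to 63.8 TPM) exceeded its relative Usp28 (36.4 to 49.9 TPM) in 12 libraries, Usp12 exceeded Usp46 in 9, and Usp9x (54.6 to 88.3 TPM) contrasted with its Y-linked copy Usp9y, which was listed at 0 in all of these female mice.

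Of the 24 members that stayed at or under 5 TPM, 7 were listed at 0 in all libraries. The highest of the 24 was Usp49, a histone H2B protease, at a mean of 3.07 TPM. Of its 31-base words 50.1% are shared with other genes, so its level is uncertain. A mean above 1 TPM was reached by 6 of the 24. They included the interferon-induced Usp18 (1.94 TPM), Usp11 (1.61 TPM) and the mitochondrial Usp35 (1.5 TPM).

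The summed conjugase level was 1350, 1510 and 1482 TPM in the ground gastrocnemius and 1517, 1272 and 1412 in the flight gastrocnemius. It was 1707, 1741 and 1742 TPM in the ground quadriceps and 1720, 1562 and 1719 in the flight quadriceps. Flight and ground overlapped in both muscles, whereas every quadriceps library lay above every gastrocnemius library. The summed protease level behaved likewise, with 1347 to 1474 TPM in the gastrocnemius and 1531 to 1621 TPM in the quadriceps. When the libraries were rescaled by the median ratio over genes, the muscles overlapped, at 1317 to 1570 and 1554 to 1697 for the conjugases and 1386 to 1483 and 1468 to 1560 for the proteases.

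Flight was first compared with ground in the gastrocnemius, to ask whether 9 weeks in orbit altered these enzymes. None of the 71 members passed an adjusted p under 0.05 and a change over 1.5-fold (limma), which 24 genes or 0.229% of all 10481 did. Differences of members ran from -0.29 to 0.38 on the log2(TPM + 1) scale, their median was -0.02, and that of all genes was 0.02. At an unadjusted p under 0.05 there were 7 members, 1 conjugase and 6 proteases, or 9.86% of 71, below the 15.1% of all genes. In 13 members (18.3%) the flight mice did not overlap the ground mice, against 21.0% of all genes. Besides those 7, Usp46, Usp37, Usp4 and Usp15 were higher in every flight mouse and Usp24 and Ube2z lower. Muscle fibre markers summed to 96100 to 100000 TPM on the ground and 102000 to 104000 in flight, and their part in the members' values was not tested.

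Ube2e1, a conjugase that works with RING and HECT ligases, was the first of the 7. It had 29.5, 30.2 and 29.2 TPM in the ground gastrocnemius and 39.3, 35 and 34.1 TPM in the flight gastrocnemius. Every flight mouse lay above every ground mouse, with means of 29.6 ± 0.508 and 36.1 ± 2.81 TPM (SD, n = 3 each). The log2 difference was 0.28 (SE 0.0858), and it did not pass the threshold (limma, adjusted p = 0.223). In the quadriceps the same conjugase had 39.4, 42.4 and 38.2 TPM on the ground and 46.6, 34.9 and 43.5 in flight, and the groups overlapped.

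Usp13 had 118, 118 and 126 TPM in the ground gastrocnemius and 104, 98.1 and 106 TPM in the flight gastrocnemius, so the flight mice were all lower (log2 difference -0.23, SE 0.0731, limma adjusted p = 0.229). Usp20, which deubiquitinates HIF1 alpha and beta-adrenergic receptors, had 7.62, 6.96 and 7.59 TPM on the ground and 8.78, 9.38 and 10.3 in flight, all higher (0.32, SE 0.103, adjusted p = 0.233). Neither passed the threshold. Usp8, an endosomal enzyme that also acts on parkin, had 11.4, 11.6 and 12.4 TPM on the ground and 13.6, 13.3 and 15.4 in flight (0.24, SE 0.0961, adjusted p = 0.310).

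The other 3 were Usp53, Usp17la and Usp21. Usp53 had 18.8, 18.5 and 16.3 TPM on the ground and 19.6, 23.4 and 23.8 in flight (0.30, adjusted p = 0.273). Usp17la had 4.13, 4.76 and 5.61 TPM on the ground and 6.78, 6.27 and 6.59 in flight (0.38, adjusted p = 0.250), but 36.9% of its 31-base words are shared with other genes and its level is uncertain. Usp21, a histone H2A and Nanog protease, had 12.2, 13.6 and 12.1 TPM on the ground and 11.1, 10.4 and 9.10 in flight (-0.29, adjusted p = 0.280). In all 3 the groups did not overlap.

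The remaining conjugases nearest to a difference in the gastrocnemius were Ube2b (-0.18, limma adjusted p = 0.400), Ube2n, the lysine 63 chain builder (-0.29, adjusted p = 0.402), Ube2e2 (0.26, adjusted p = 0.406), Ube2v2 (-0.16, adjusted p = 0.496) and Ube2v1 (-0.12, adjusted p = 0.534). In each of these 5 the flight and ground values overlapped. By role, 7 of 18 tested chain-building conjugases, 1 of 6 conjugases of lysine 63 chains and DNA damage, and 0 of 5 conjugases of ubiquitin-like modifiers had a positive difference. Among proteases, 1 of 9 in the proteasome and quality control list and 6 of 6 in the mitochondria and mitophagy list were positive. The clock and muscle growth list had 6 of 8 and the chromatin and DNA repair list 3 of 6. It was 3 of 4 for Usp6nl, Usp39, Usp53 and Usp54. Over all genes 5614 of 10481 differences were positive, and no list had a member past the threshold. In the quadriceps the proteasome list had 5 of 9 positive and the mitochondria list 4 of 6. The clock list, the chromatin list and the last group there had 2 of 8, 5 of 6 and 3 of 4, beside 5453 of all genes.

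**Figure D2:**
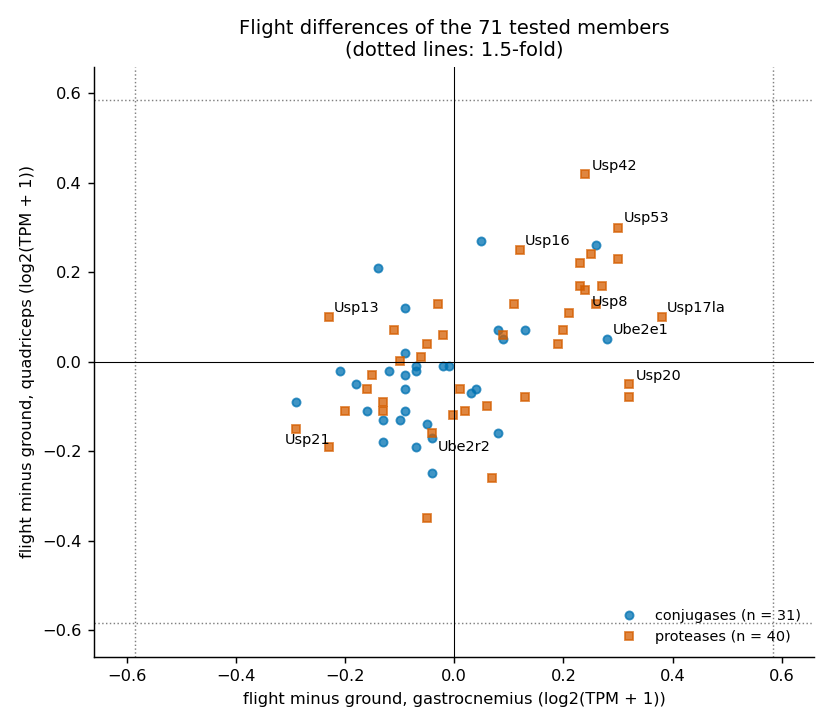
Log2 differences, flight minus ground, of the 71 tested members in the gastrocnemius (x axis) and quadriceps (y axis). Circles are conjugases, squares are proteases, and dotted lines mark 1.5-fold. All 71 points lie inside the 1.5-fold lines in both muscles.

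In the quadriceps again no member passed the threshold, which 3 genes or 0.0286% of all genes did (limma). Member differences ran from -0.35 to 0.42 with a median of -0.02, beside 0.01 for all genes. There were 2 members (2.82%) at an unadjusted p under 0.05, against 10.8% of all genes, and 9 members (12.7%) whose groups did not overlap, against 17.4%. Fat cell markers summed to 483 to 818 TPM on the ground and 354 to 531 in flight, and 7 of 9 had an unadjusted p under 0.05 although none was called. Their part in the members' values was not tested.

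The 2 were Usp16 and Ube2r2. Usp16, a histone H2A protease, had 38.1, 46.5 and 44.9 TPM in the ground quadriceps and 53.4, 50.7 and 49.7 in the flight quadriceps, every flight mouse being higher (0.25, SE 0.0962, limma adjusted p = 0.440). Ube2r2 had 149, 152 and 155 TPM on the ground and 134, 129 and 143 in flight, every flight mouse being lower (-0.17, SE 0.0668, adjusted p = 0.445). Neither passed the threshold. In the gastrocnemius Ube2r2 had 109, 127 and 129 TPM on the ground and 121, 113 and 120 in flight, which overlapped.

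After these came Usp53 (0.30, limma adjusted p = 0.482) and the Fanconi pathway protease Usp1 (-0.26, adjusted p = 0.505). For Usp1, 31.6% of the 31-base words are shared with other genes, so its level is uncertain. Usp40 (0.22, limma adjusted p = 0.505), Usp15 (0.13, adjusted p = 0.515) and Usp42 (0.42, adjusted p = 0.555) followed. The next conjugases were the NEDD8 conjugase Ube2f (-0.19, adjusted p = 0.565), Ube2w (0.21, adjusted p = 0.633), Ube2e3 (-0.13, adjusted p = 0.653) and the NEDD8 conjugase Ube2m (-0.14, adjusted p = 0.657). Usp15 was higher in every flight mouse in the quadriceps (118, 124 and 131 TPM on the ground, 139, 137 and 133 in flight) and in the gastrocnemius (108, 107 and 108 TPM on the ground, 113, 117 and 118 in flight). Usp53 and Usp8 also had non-overlapping, higher flight values in both muscles, but the muscles come from the same 6 mice and are not independent. The share of all genes that do so in both muscles was not counted. In the single muscles 21.0% and 17.4% of all genes did not overlap, in either direction.

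**Figure D3:**
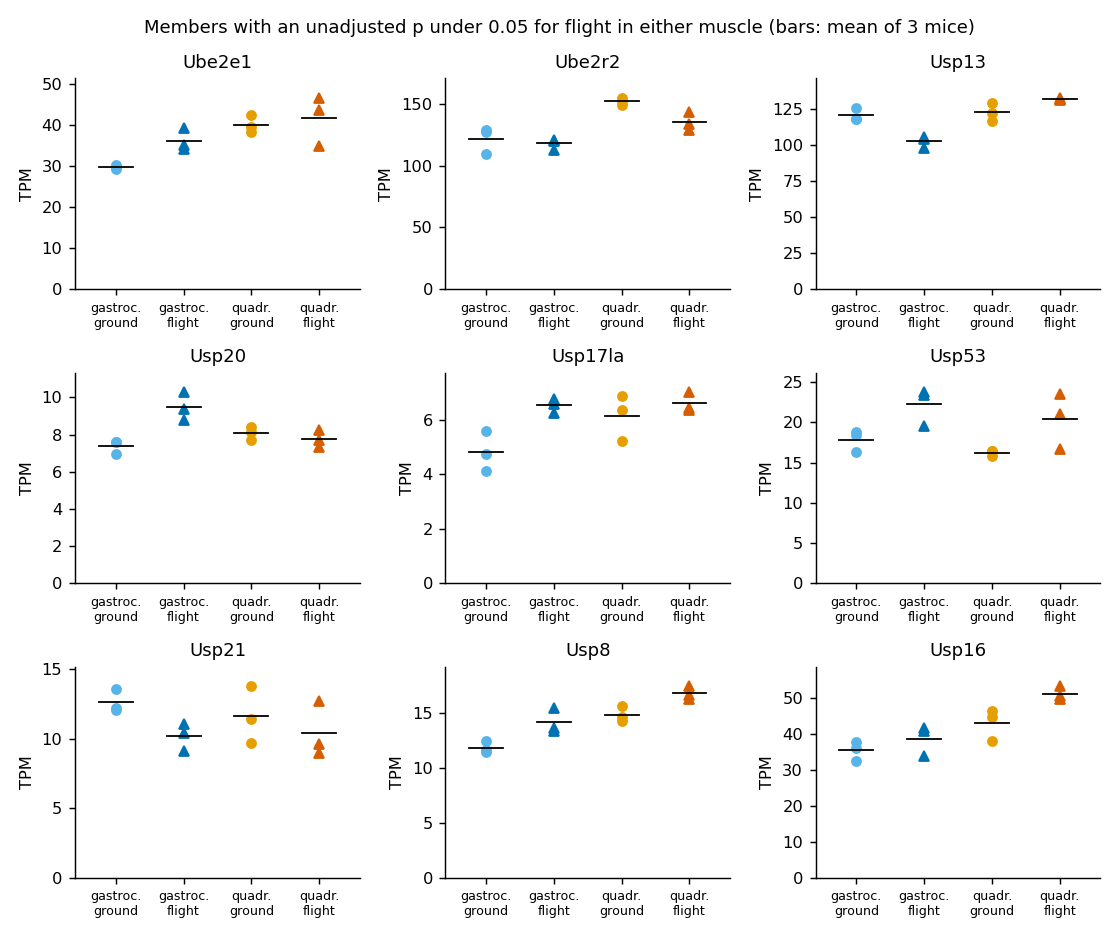
TPM in each library of the 9 members with an unadjusted p under 0.05 for flight in either muscle, with the mean of 3 mice as a bar (circles ground, triangles flight). Usp13 is lower in all 3 flight mice in the gastrocnemius (98.1 to 106 against 118 to 126 TPM) and higher in all 3 in the quadriceps (131 to 133 against 117 to 129 TPM).

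Whether the flight difference was unlike between the muscles was tested within mice. No gene passed the threshold (0.0%), and 534 genes had an unadjusted p under 0.05, which is 5.09% of all genes and compares with 2 members (2.82%). Usp13 came first among the members. Its quadriceps values were 122, 129 and 117 TPM on the ground and 132, 133 and 131 in flight, so that flight mice were higher there and lower in the gastrocnemius. The quadriceps minus gastrocnemius difference of the same mouse was 0.05, 0.13 and -0.10 in the ground mice and 0.35, 0.43 and 0.31 in the flight mice. The flight effect differed by 0.34 (SE 0.106) between the muscles, which did not pass the threshold (limma, adjusted p = 0.939).

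Usp20, higher in every flight gastrocnemius, had 8.12, 7.70 and 8.39 TPM in the ground quadriceps and 8.24, 7.31 and 7.73 in the flight quadriceps, where the groups overlapped. The difference between its flight effects was -0.37 (SE 0.149, limma adjusted p = 0.957). The next members were Ube2w (0.35), Ube2j2 (0.21), Ube2e1 (-0.23), Usp1 (-0.34), Usp17la (-0.28), Usp4 (-0.21), Usp31 (-0.30), Ube2n (0.20) and Ube2r2 (-0.13), with adjusted p of 0.957 to 0.975.

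The muscles were next compared with each other, within mice over 12 libraries. Counts of calls are thus not on equal terms with those of the unpaired flight comparisons. The median absolute log2 difference of members was 0.17 between muscles, and 0.12 and 0.11 for flight in the gastrocnemius and quadriceps. Over all genes, 458 exceeded 1.5-fold between muscles, and 329 and 433 for flight. The quadriceps was compared with the gastrocnemius of the same mouse, averaged over ground and flight. No member passed both an adjusted p under 0.05 and 1.5-fold, which 349 genes (3.33%) did. At an adjusted p under 0.05 with no fold limit, a rule chosen after the values were seen, there were 28 members, 16 conjugases and 12 proteases. That is 39.4% of the 71, against 29.0% of all genes, and all 28 were higher in the quadriceps, where 24.4% of all genes were called in that direction. At an unadjusted p under 0.05 the count was 34 members, beside 41.3% of all genes.

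Usp14, the ubiquitin protease bound to the proteasome, had the lowest p of the members. It had 33.4, 38.2 and 35.3 TPM in the ground gastrocnemius, 34.6, 27.5 and 33.6 in the flight gastrocnemius, 44.9, 47.0 and 56.1 in the ground quadriceps and 48.7, 44.2 and 48.4 in the flight quadriceps. All 6 quadriceps values exceeded all 6 gastrocnemius values. The log2 difference was 0.50 (SE 0.0655, limma adjusted p = 0.00177), a ratio of 1.42.

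Ube2d1 rose in the quadriceps by 0.41 (SE 0.0607, limma adjusted p = 0.00285) although its mice differed widely, because the difference was positive within each mouse, from 0.25 to 0.61. Ube2k, which builds lysine 48 chains, had 31.9, 34.0 and 37.5 TPM in the ground gastrocnemius against 45.6, 51.3 and 45.6 in the ground quadriceps (0.41, SE 0.0688, adjusted p = 0.00421). Ube2l3 (0.37, adjusted p = 0.00434), Ube2b (0.30, adjusted p = 0.00493), Ube2v2, the second partner of Ube2n (0.45, adjusted p = 0.00539), and Ube2q2 (0.34, adjusted p = 0.00655) were also higher in the quadriceps. Each was higher there in 6 of 6 mice.

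Among proteases, Usp47 was higher in the quadriceps by 0.33 (SE 0.0534, limma adjusted p = 0.00347), with 122 to 129 TPM against 146 to 166 TPM in the ground mice. Usp16 (0.34, adjusted p = 0.00561), Usp45, an enzyme of nucleotide excision repair (0.46, adjusted p = 0.00584), Usp9x (0.32, adjusted p = 0.01) and Usp8 (0.27, adjusted p = 0.0111) followed. The other 16 members were Ube2n, Ube2r2, Ube2e1, Ube2d2a, Ube2v1, Ube2g1, Usp15, Usp24, Usp38, Ube2d3, Usp13, Ube2m, Usp34, Ube2h, Usp37 and Ube2g2, with differences of 0.17 to 0.37. Ube2e1 and Usp13 were not higher in the quadriceps in all 6 mice, and the other 26 of the 28 were.

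**Figure D4:**
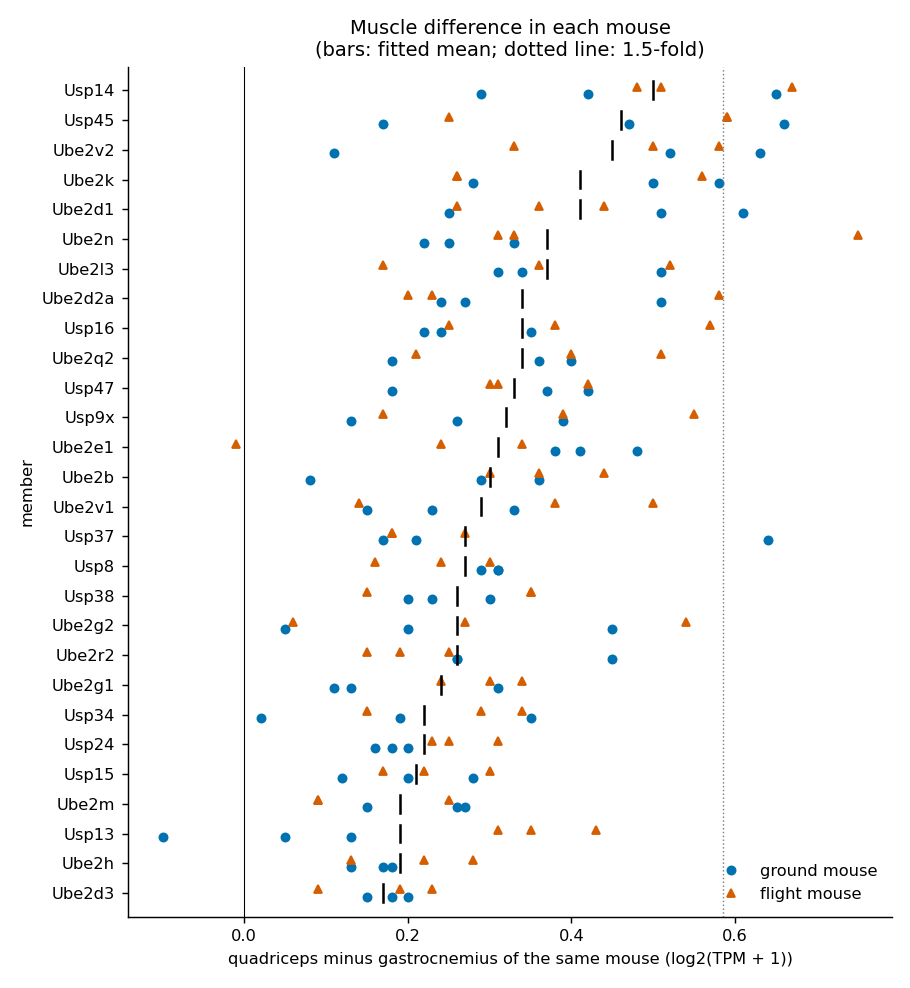
Log2(TPM + 1) in the quadriceps minus that in the gastrocnemius of the same mouse, for the 28 members with an adjusted p under 0.05; circles are ground mice, triangles flight mice and bars the fitted mean. The fitted means run from 0.17 (Ube2d3) to 0.50 (Usp14), left of the dotted 1.5-fold line. The ground and flight mice do not overlap for Usp13, Ube2e1, Ube2r2 and Usp24, and the share of all genes without overlap here was not counted.

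In 31 members (43.7%) all 6 mice differed in the same direction, against 31.0% of all genes. By role, 11 of 18 chain-building conjugases, 4 of 6 conjugases of lysine 63 chains and DNA damage, 5 of 9 proteases of the proteasome and quality control list and 3 of 6 chromatin and DNA repair proteases had an adjusted p under 0.05. Of the conjugases of ubiquitin-like modifiers it was 1 of 5, Ube2m, and of the cell cycle conjugases 0 of 2. It was 0 of 8 proteases of the clock and muscle growth list, Usp2 among them. In the mitochondria and mitophagy list it was 2 of 6, and for Usp6nl, Usp39, Usp53 and Usp54 it was 0 of 4. Over all genes the share was 29.0%. The share of libraries taken up by other genes bears on these values. The median log2 difference was 0.11 for all genes and 0.17 for the members, and 84.1% of the 3036 genes past the threshold were higher in the quadriceps. After rescaling by the median ratio, 63% of 2285 genes were. Then 16 of 71 members passed, against 21.8% of all genes, with 15 higher in the quadriceps and Usp53 lower. Usp14 (0.41, limma adjusted p = 0.00464) and Ube2d1 (0.31, adjusted p = 0.0136) were among the 15, while Usp8, Ube2v1, Ube2d3 and Usp13 were not. Without mouse M08, whose quadriceps library listed the fewest genes, 22 members passed at an adjusted p under 0.05, against 23.3% of all genes. Nerve and Schwann cell markers summed to 170 to 340 TPM in the gastrocnemius and 78.0 to 115 in the quadriceps, and muscle fibre markers had a higher sum in the quadriceps as given above. Of 9 tested fat cell markers 2 were called higher in the quadriceps and 8 had a positive difference (median 0.45), and of 6 tested macrophage markers 1 was called higher and 5 were positive (median 0.26). The part of any of these in the members' differences was not tested.

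The rest of the ubiquitin pathway gave the setting. Of the 4 ubiquitin genes, Rps27a, which encodes ubiquitin fused to a ribosomal protein, had 138, 132 and 129 TPM in the ground gastrocnemius and 89.1, 70.2 and 80.0 in the flight gastrocnemius. It passed the threshold there (-0.74, SE 0.0989, limma adjusted p = 0.0446), but was not called when any of 5 of the 6 libraries was left out (adjusted p = 0.112 to 0.234), while without flight mouse M11 it was (adjusted p = 0.0175). With all libraries it was not called with no filter, no trend, all 12 libraries in 1 fit or a replicate block (limma, adjusted p = 0.0711 to 0.161). It stayed called with other pseudocounts, a filter on mean TPM and rescaling (adjusted p = 0.0272 to 0.0467). Rps27a was also called higher in the quadriceps than in the gastrocnemius (0.84, adjusted p = 0.00119). Of 9 activating enzymes, 28 tested other deubiquitinases, 14 tested ligases of muscle wasting and 10 isopeptidases of other modifiers, none was called for flight in either muscle.

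The ligase Trim63 had the lowest p of the wasting ligases for flight in both muscles (0.31, limma adjusted p = 0.210 in the gastrocnemius, and 0.45, adjusted p = 0.347 in the quadriceps). Next were Fbxo30 in the gastrocnemius (-0.23, adjusted p = 0.355) and Mul1 in the quadriceps (0.36, adjusted p = 0.46). Of the other deubiquitinases the first were Otud5 (0.35, adjusted p = 0.218) and Brcc3 (0.42, adjusted p = 0.241) in the gastrocnemius and Zranb1 (0.19, adjusted p = 0.487) and Mindy2 (-0.30, adjusted p = 0.494) in the quadriceps. Between muscles, the deubiquitinase Otud1 was called lower in the quadriceps (-1.11, adjusted p = 0.00865), although in mouse M12 it was higher there, with 19.2 against 14.8 TPM. With no fold limit, 24.4% of all genes had an adjusted p under 0.05 and were higher in the quadriceps. So were 7 of 28 tested other deubiquitinases, 7 of 14 ligases, 2 of 9 activating enzymes and 2 of 10 isopeptidases. Otud6b (0.36) and Cops5 (0.35), the ligase Trim55 (0.47), the activating enzymes Uba3 (0.31) and Nae1 (0.24) and the SUMO proteases Senp6 (0.22) and Senp2 (0.19) were among these.

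Splicing was measured as percent spliced in (PSI), the share of junction reads, per unit of effective length, that come from the form that holds an exon. A skipped exon is set against its absence, and a mutually exclusive pair is set one exon against the other, with PSI counted for whichever exon is the more 5′. The tables held 20 events of 13 members in each muscle, 14 skipped exons and 6 mutually exclusive pairs. For each of the 6 pairs at least 1 annotated transcript holds both exons (5 and 7 transcripts for the pairs of Usp15, 2 and 1 for those of Usp13), and reads from such a transcript count toward either form, so PSI of a pair need not be a choice between its exons. Of these, 19 could be tested in the gastrocnemius and 20 in the quadriceps. The members with events were Ube2d3, Ube2e2, Ube2g1, Ube2j1, Ube2q2, Usp4, Usp13, Usp14, Usp15, Usp16, Usp34, Usp45 and Usp47. The median depth of an event in a sample was 50 junction reads in the gastrocnemius and 57 in the quadriceps. Mouse names are not attached to these samples, so each group's 3 values appear in the order of the tables.

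The exons that the results turn on are shown first, as read from GENCODE transcripts on GRCm38. The Usp47 exon is exon 12 of transcript Usp47-206, chr7:112080172-112080231 on the plus strand, a coding exon of 60 bases, and the Usp15 exon is exon 7 of Usp15-211, chr10:123153041-123153127 on the minus strand, a coding exon of 87 bases. Both lengths are multiples of 3 and neither exon holds an in-frame stop codon. Exon bases are in capitals between 15 bases of each neighbouring exon.
Usp47 exon 12: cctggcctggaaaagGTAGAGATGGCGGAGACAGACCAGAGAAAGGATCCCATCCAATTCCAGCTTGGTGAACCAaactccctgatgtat
Usp15 exon 7: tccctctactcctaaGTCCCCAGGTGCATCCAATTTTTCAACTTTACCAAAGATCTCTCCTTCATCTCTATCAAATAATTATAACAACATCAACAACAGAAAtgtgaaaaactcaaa

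In the gastrocnemius no member event passed an adjusted p under 0.05 with a PSI difference over 5%, which 8 events (0.378%) did (limma on log2 ratios of the forms). The member with the lowest p was Usp47. With its 60-base exon set against absence, PSI was 65.0%, 71.8% and 64.6% in the ground samples and 72.8%, 75.6% and 87.4% in the flight samples. The means were 67.2% ± 4.02 and 78.6% ± 7.77 (SD, n = 3 each), and every flight sample was higher. The log2 ratio differed by 0.89 (SE 0.426) and did not pass the threshold (adjusted p = 0.571).

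The same exon also enters a mutually exclusive event with the next exon of 132 bases. There its PSI was 31.4%, 28.7% and 26.8% in the ground gastrocnemius and 35.9%, 40.5% and 41.0% in the flight gastrocnemius, again higher in every flight sample (0.65, SE 0.257, limma adjusted p = 0.461). Transcript Usp47-206 holds both exons, so that a read of an outer junction can come from a transcript that has them both. The events share reads of the junction that enters the exon and are not independent. These were the only 2 member events whose groups did not overlap in the gastrocnemius, 10.5% of 19 against 16.2% of all events, and the mutually exclusive event was the only one at an unadjusted p under 0.05, against 9.49% of all events.

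In the quadriceps the Usp47 exon stood at 75%, 80.5% and 82.6% on the ground and 79.2%, 90.4% and 81.4% in flight as a skipped exon, and at 34.3%, 35.5% and 36.7% against 33.3%, 38.7% and 33.4% in the mutually exclusive event. The groups overlapped in both. The flight effect on the mutually exclusive event differed by -0.68 (SE 0.344) between the muscles (limma, adjusted p = 0.759). As a skipped exon it was the one member event at an unadjusted p under 0.05 between the muscles, by a mean PSI difference of 8.63% in favour of the quadriceps (0.69, SE 0.314, adjusted p = 0.272). Between muscles 17.3% of all events reached that p, and 8.29% passed the threshold, none of them a member.

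The other gastrocnemius events with the lowest p were a 44-base exon of Ube2d3, a 421-base exon of Usp34 and a mutually exclusive pair of Usp15. The Ube2d3 exon had a mean PSI of 4.92% on the ground and 10.5% in flight, on 13 to 28 junction reads per sample (limma, adjusted p = 0.605). The Usp34 exon had 82.6% and 91.0% (adjusted p = 0.646), and the 146-base exon of Usp15 had 78.6% and 70.1% against the exon after it (adjusted p = 0.676). In all 3 the groups overlapped.

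**Figure D5:**
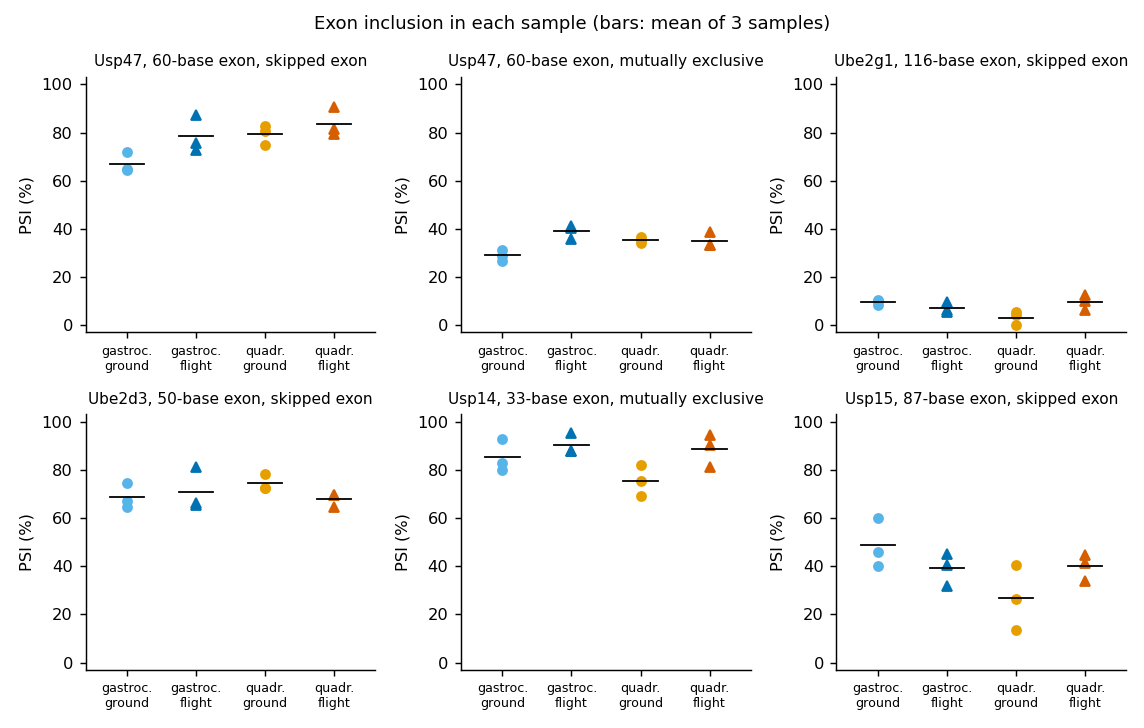
PSI in percent for 6 member events in each sample of the 4 groups, with the mean of 3 samples as a bar (circles ground, triangles flight). The Usp47 exon is higher in every flight sample than in every ground sample in the gastrocnemius in both of its events, and the Ube2g1 exon in the quadriceps, where it stays under 13%.

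In the quadriceps no event of any gene passed the threshold (0.0%), and 160 events (7.76%) had an unadjusted p under 0.05, 1 of the 20 member events among them. This was a 116-base exon of Ube2g1. It is exon 2 of an annotated transcript, chr11:72645537-72645652 on the plus strand, and it has no coding bases there. Its PSI was 4.14%, 5.39% and 0% in the ground samples and 10.1%, 12.7% and 6.36% in the flight samples. Every flight sample was higher, on 0 to 9 inclusion reads on the ground and 11 to 23 in flight, and the ground sample at 0 had 31 junction reads where the other samples had 88 to 109. The log2 ratio differed by 1.92 (SE 0.818) and did not pass the threshold (limma, adjusted p = 0.636).

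In the gastrocnemius the Ube2g1 exon had 8.28%, 10.3% and 9.86% on the ground and 9.45%, 5.31% and 6.38% in flight, which overlapped. The flight effects of the muscles differed by 2.42 (SE 0.930), also short of the threshold (limma, adjusted p = 0.710). It was the only one of 19 member events at an unadjusted p under 0.05 for that difference, against 6.67% of all events, of which 0.161% passed the threshold.

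A 50-base exon of Ube2d3 was the other quadriceps event without overlap, which makes 2 of 20, against 12.8% of all events. It is exon 7 of Ube2d3-208, chr3:135463721-135463770 on the plus strand, and 46 of its bases are coding there. PSI was 72.5%, 72.5% and 78.1% on the ground and 64.5%, 69.7% and 69.6% in flight, lower in every flight sample, on 251 to 333 junction reads (-0.45, SE 0.351, limma adjusted p = 0.783). In the gastrocnemius it was 67.2%, 64.7% and 74.7% on the ground and 81.0%, 66.4% and 65.4% in flight, which overlapped.

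Usp14 had the second lowest p in the quadriceps. Its 33-base exon 3 was counted against the 105-base exon 4, with PSI of 82.1%, 75.3% and 69.2% on the ground and 90.4%, 94.3% and 81.0% in flight (1.4, SE 0.693, limma adjusted p = 0.668). The groups overlapped, since the highest ground sample exceeded the lowest flight sample. Both exons stand together in 4 of 10 annotated Usp14 transcripts. In the gastrocnemius the means were 85.3% on the ground and 90.3% in flight.

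Usp15 was the member with the most events, 2 mutually exclusive pairs and the 87-base exon shown above. That exon had a PSI of 40.2%, 45.7% and 60% in the ground gastrocnemius and 45.1%, 31.9% and 40.6% in the flight gastrocnemius. In the quadriceps it had 26.3%, 40.7% and 13.5% on the ground and 44.7%, 41.2% and 34.0% in flight. The mean differed by -9.46% in the gastrocnemius and by 13.1% in the quadriceps, flight minus ground, but the groups overlapped in both and the difference of the flight effects did not pass the threshold (1.51, SE 0.836, limma adjusted p = 0.771). The other quadriceps event of Usp15 near the top was its 127-base exon 4 against exon 5, at 55.6% ± 13.6 on the ground and 43.4% ± 6.57 in flight (SD, n = 3 each), which overlapped too. The fifth event by p in the quadriceps was a 141-base exon of Usp4, a protease of TGF-beta receptors, at 93.6% on the ground and 98.3% in flight (adjusted p = 0.781).

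Usp13 offered the choice of an acceptor site 3 bases apart. The first exon of its mutually exclusive pair is listed with 61 or 58 bases, at chr3:32847810-32847870 on GRCm38, plus strand, and is printed with the bases that only the longer form has in capitals, because they are the whole difference between these events.
Usp13 exon 3: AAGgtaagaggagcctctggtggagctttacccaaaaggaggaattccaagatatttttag
With the 61-base form PSI lay between 71.8% and 90.9% in all 12 samples, and with the 58-base form between 0% and 21.4%. The 61-base form had 41 to 88 inclusion reads per sample and the 58-base form 0 to 3. Flight and ground overlapped for either form in both muscles, with adjusted p of 0.875 to 0.972 (limma). Each event sets its form against exon 4, so the forms were not tested against each other, and the reads of the shorter form are too few for it.

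The events of Ube2e2, Ube2j1, Ube2q2, Usp4, Usp16, Usp45 and the 36-base exon of Usp34 had overlapping groups in both muscles. Ube2q2 showed how few reads some of them rest on, with PSI from 30% to 100% in the gastrocnemius on 7 to 16 junction reads per sample, and from 0% to 84.0% in the quadriceps on 4 to 23. For a single event, 3 samples against 3 cannot give a two-sided exact permutation p under 0.1. That was the value of the Usp47 events in the gastrocnemius and of the Ube2g1 and Ube2d3 events in the quadriceps.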

How the data were processed

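The members and gene lists were chosen with earlier results of these data known. The authors deposited TPM per gene, made with kallisto 0.46.0 from single-end 50-base stranded mRNA reads and summed with tximport. They also deposited other values, from STAR 2.7.1a on mm10 and rMATS-turbo, for skipped and mutually exclusive exons: inclusion and skipping junction reads of 3 samples per group, effective lengths and PSI. Columns of the authors' own p-values, FDR and mean PSI differences (ground minus flight) were not used, and their DESeq2 1.26.0 needs counts. PSI recomputed here differed from the deposited PSI by at most 0.0005.

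For expression, limma 3.58.1 under R 4.3.3 (eBayes with a trend) was run on log2(TPM + 1), which understates changes of low genes, for 10481 genes above 5 TPM in at least 1 of 12 libraries. Flight and ground were set against each other muscle by muscle. The muscle difference and the difference of the flight effects were fitted over 12 libraries with the mouse, named in the labels, as a block. Deviations of the muscles of 1 mouse correlated at -0.119 (M20) to 0.333 (M11). For splicing the response was log2 of inclusion over skipping reads, each with 0.5 added and divided by effective length. Events needed a mean over 10 reads in both groups, and those with PSI of 5% or less in every sample, or of 95% or more in every sample, were dropped. P-values are two-sided and Benjamini-Hochberg adjusted over all genes or events. A call needed an adjusted p under 0.05 together with over 1.5-fold for a gene, or a PSI difference over 5% for an event. P-values cover the spread between these mice only. The scripts were tested on simulated data. Symbols, exons and sequences came from GENCODE on GRCm38, the same assembly as mm10. Depth is unknown for TPM. Junction reads of all events summed to 777760 to 1246850 per sample, and across 193 gastrocnemius and 204 quadriceps genes the flight to ground ratio of junction reads correlated with that of TPM (r = 0.500 and 0.598), which checks the order of the groups.

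Named were: all called members; in each comparison the 6 conjugases and 6 proteases with the lowest p; the 6 of each with the highest TPM; symbol stems; per muscle the 5 member events with the lowest p and those without overlap; and the first 2 genes of each pathway list. A few genes that this rule picks are not reported here. Other members named for variation or low level were chosen after their values were seen. Alternatives were other pseudocounts, filters, scaling, blocks, weights and left-out libraries.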

Additional observations from a re-analysis of the deposited data

Results flagged for a closer look

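Usp13 was picked out because all 3 flight mice lay below the ground mice in the gastrocnemius (-0.23) and above them in the quadriceps (0.10, log2 scale). The flight effects differed by 0.34, which did not pass the threshold in limma (adjusted p = 0.939). Its unadjusted p of 0.0128 was the lowest of the 71 members, but it rests on the values that picked Usp13 out. An unadjusted p under 0.05 was found for 2.82% of members and 5.09% of all genes. The share of all genes that would be picked out in this way was not counted.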

How the results depend on the processing

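No member and no member event was called under any alternative that was run for flight in either muscle, for the muscle difference at 1.5-fold or for the difference of the flight effects. Counts over all genes moved. For flight in the gastrocnemius, 24 genes became 4 with no filter, 5 with no trend, and 1 to 133 with a library left out (1 without flight mouse M20, 133 without flight mouse M11). In the quadriceps, 3 became 1 with a pseudocount of 5, with no filter, with rescaling by the median ratio and with no trend, and 1 to 4 with a library left out. With the replicate block, which pairs the same number across conditions, 0 genes were called in either muscle. These numbers do not pair the mice (correlations of -0.18 to 0.111). Without the mouse block, 26 members had an adjusted p under 0.05 between muscles, against 27.3% of all genes. Ube2d1 was not among them (limma, adjusted p = 0.0541). For splicing no paired analysis was possible because those samples carry no mouse names.

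Between muscles, 349 genes became 184 with a pseudocount of 5. With no fold limit 3036 genes and 28 members passed. After rescaling 16 of the 71 members passed, against 21.8% of all genes. Rescaling moved the summed levels in the ground quadriceps to 1676 TPM (conjugases) and 1498 TPM (proteases). The summed protease level in the flight quadriceps moved to 1504 TPM. With 1 mouse left out, 20 to 24 members passed, and 20 of the 28 passed in all 6 such fits. For the difference of the flight effects, 0 genes became 2 with no filter and 0 to 1 with a mouse left out. For splicing in the gastrocnemius, 8 events became 0 with no trend and 1 to 9 with a sample left out. For the difference of the flight effects on splicing, 3 events became 1 with over 20 reads, 0 with no trend and 0 to 6 with a sample left out. The cause of these shifts was not tested.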
